A study of Mus musculus with 23 samples.

Results

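The protein scaffold of the presynaptic active zone was followed at the level of its transcripts in cultures of hippocampal neurons that had lost *Nedd8*. It was represented by 10 genes: *Bsn*, *Pclo*, *Rims1*, *Rims2*, *Unc13a*, *Unc13b*, *Erc1*, *Erc2*, *Rimbp2* and *Ppfia3*. These genes were found in the count tables by matching the Ensembl identifiers to the GRCm39 annotation, and make up 10 of the 56941 genes listed. RNA had been sequenced from primary cultures of newborn homozygous NEDD8cKO mice, in which LoxP sites flank part of *Nedd8*, after 12 days in culture by the labels. The study's Methods state a later day. Every culture carried the same conditional allele, from 1 line made by CRISPR, and had been infected with lentivirus. In the control group the virus expressed RFP, and in the CRE group the CRE recombinase tagged with RFP, in both cases from the Synapsin1 promoter, which is active in neurons. RNA was extracted from the culture as a whole, so that glia and other cells of the dish were sequenced together with the infected neurons.

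The active zone is the patch of presynaptic membrane where synaptic vesicles dock, become ready for fusion and release transmitter opposite the postsynaptic density. Its large multidomain proteins bind one another and tie vesicles to the calcium channels. RIM proteins connect the vesicle protein Rab3 to Munc13 and, through RIM-binding proteins, to the channels, while Bassoon, Piccolo, ELKS and liprin-α proteins build the surrounding cytomatrix. Nedd8 is a small ubiquitin-like protein whose attachment to cullins switches on a large class of ubiquitin ligases.

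Of the 23 libraries, 12 were CRE and 11 RFP. CRE libraries 1-3 and 3-3, which the study's Methods leave out, also stood apart here, and 10 CRE libraries were compared with 11 RFP libraries (the study's own count table, as read here, instead leaves out CRE library 3-3 and RFP library 3-2), at 7635735 to 17112815 counts each. Labels number the libraries by a first digit, called set number below, and a second digit. Neither digit is explained, but the 3 set numbers match the count of animals or biological replicates that the study's legends state for this experiment. Libraries of a set may therefore share a source, and p-values over 21 libraries measure the spread between libraries, which may be technical, and can be too small. *Nedd8* checked the labels. It ranged from 5.92 to 18.0 CPM (counts scaled to a common library size with TMM factors) in CRE libraries and from 44.1 to 76.0 in RFP libraries, with a log2 fold change of -2.41 (SE 0.16, adjusted p = 1.79e-12). The 11 neuron markers were detected in every library, at a summed 3620 to 5560 CPM in CRE and 4930 to 6520 CPM in RFP libraries. Astrocyte markers summed to 1670 to 5370 and 3110 to 8020 CPM. The summed oligodendrocyte lineage markers ranged from 447 to 1070 CPM in CRE and from 611 to 1970 CPM in RFP libraries. The largest part of this sum was *Olig1*, with a median of 730 CPM in RFP and 550 CPM in CRE libraries. Single markers differed more, with medians in RFP and CRE of 281 and 9.38 CPM for *Pdgfra*, 77.4 and 1.68 for *Sox10*, and 72.3 and 9.51 for *Cspg4*. *Mog* was low in both, at 1.85 and 1.79 CPM. Microglia markers reached at most 7.70 CPM in any of these libraries, and *Cx3cr1*, *C1qa* and *C1qb* had a median count of 0 in both groups.

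All 10 active zone genes had lower estimated levels in CRE than in RFP libraries, and 9 of them fell by the test. A change was called where the quasi-likelihood test of edgeR gave an adjusted p below 0.05 (Benjamini-Hochberg, over the 14482 genes tested). By this rule 17.8% of all genes tested were lower, 20.2% were higher and 37.9% changed in either direction. The median log2 fold change of the 10 genes was -0.64, against 0.02 over all genes tested. The 10 genes were chosen with earlier results of these data known, so these contrasts with all genes are descriptions. The member that did not pass the test was *Unc13b*. With counts summed per set number, 3 CRE against 3 RFP sums, 9 members fell as well (median -0.70), beside 2130 of 18275 genes tested. Their adjusted p in the edgeR fit ran from 5e-05 for *Erc2* to 0.0352 for *Rims2*, and *Unc13b* had -0.27 (adjusted p = 0.308). Summed over the 10 genes, the level ran from 1093 to 1529 CPM in CRE libraries (median 1286) and from 1825 to 2109 CPM in RFP libraries (median 1934), without overlap. No member passed the study's thresholds, a log2 fold change beyond 1.3 and a -log10 p above 6 (unadjusted), which 2.87% of all genes passed in this fit. In such bulk samples, fewer cells of a type and less RNA per cell cannot be told apart.

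**Figure D1:**
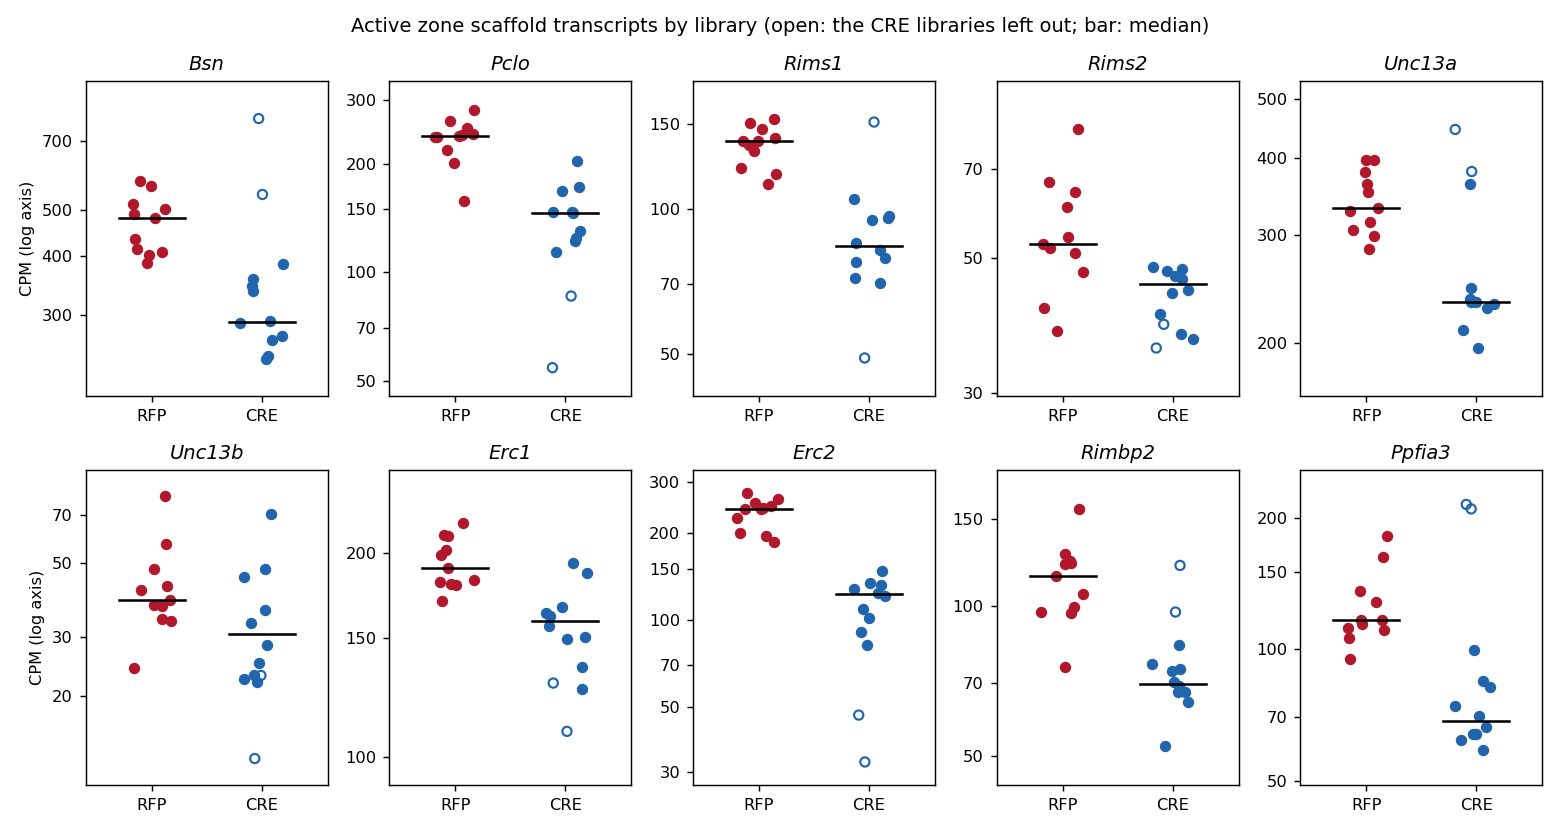
Level of each active zone gene in CPM (log axis) in the RFP and CRE libraries, with filled points for the 21 libraries compared, open points for CRE libraries 1-3 and 3-3, and a bar at the median of the filled points. The filled CRE points lie wholly below the RFP points for *Bsn*, *Rims1* and *Erc2*, while those of *Unc13b* overlap across most of their range.

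Bassoon and Piccolo are giant related scaffold proteins of the cytomatrix, among the earliest to arrive at a forming synapse. *Bsn*, which encodes Bassoon (ENSMUSG00000032589, chr9:107973221-108067629 of GRCm39, minus strand), had the highest count of the members. Its level was lowest at 386 CPM, had a median of 481 and was highest at 576 CPM in RFP libraries, and these values were 243, 291 and 385 CPM in CRE libraries. The 10 CRE libraries were all below the lowest RFP library, though only just for the highest of them, library 3-2. The log2 fold change was -0.63 (SE 0.09, adjusted p = 3.17e-06), a change of -35.5% with a 95% interval from -43.2 to -26.8%. *Pclo*, which encodes Piccolo (ENSMUSG00000061601, chr5:14564932-14913473, plus strand), ranged from 158 to 283 CPM in RFP libraries (median 240) and from 114 to 204 CPM in CRE libraries (median 146). Here 7 of 10 CRE libraries were lower than every RFP library, and the lowest RFP value was that of library 2-4. *Pclo* fell by 0.67 on the log2 scale (SE 0.10, adjusted p = 4.44e-06). Every CRE library being below every RFP library was seen for 3 of the 10 members and for 2.6% of all genes tested.

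Within a library, the ratio of *Bsn* to *Pclo* counts does not depend on library scaling. It had a median of 1.94 in RFP libraries (from 1.36 to 3.56) and 2.13 in CRE libraries (from 1.68 to 2.35). The mean log2 ratio differed by 0.04 between the groups, with a 95% interval from -0.22 to 0.29 (two-sided permutation test over 10 CRE and 11 RFP libraries, adjusted p = 0.795 over 4 paralog pairs). Both transcripts differ in base composition, with 59.7% GC in the exons of *Bsn* and 44.9% in those of *Pclo*. After correcting each library for its trend along gene GC content, the difference was 0.24 (adjusted p = 0.0219 from the same permutation test), so that the call for this pair turned on that correction.

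The 250 bases before the start of the canonical transcript are shown for *Bsn* and *Pclo*, as the giant scaffolds whose transcripts fell together, from GRCm39, 5′ to 3′ on the strand of the gene. Capitals mark matches to letters chosen after the sequences had been seen. *Bsn* (chr9:108067630-108067879) held GCATGCGC, the core of the site of the nuclear respiratory factor NRF1, in 2 overlapping matches from 101 and 99 bases before the start, and *Pclo* (chr5:14564682-14564931) held none of the letters searched.
Bsn: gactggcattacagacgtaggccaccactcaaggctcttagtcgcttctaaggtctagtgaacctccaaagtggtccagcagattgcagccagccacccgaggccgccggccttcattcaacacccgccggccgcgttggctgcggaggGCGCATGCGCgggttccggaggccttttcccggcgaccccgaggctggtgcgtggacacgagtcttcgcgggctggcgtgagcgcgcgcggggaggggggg
Pclo: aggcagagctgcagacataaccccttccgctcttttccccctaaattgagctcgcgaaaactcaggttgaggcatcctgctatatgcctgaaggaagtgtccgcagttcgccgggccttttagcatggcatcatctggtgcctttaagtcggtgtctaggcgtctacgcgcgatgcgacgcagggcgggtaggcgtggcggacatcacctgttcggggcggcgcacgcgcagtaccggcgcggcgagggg
On either strand, GCATGCGC was present in 3.28% of the windows of 12958 tested protein-coding genes and in 1 member. The Sp1 site GGGGCGGGG was in 16.0% of these windows and in 3 members, *Unc13b*, *Erc1* and *Rims2*. TTCAGCACC, the left part of the RE1 element, was in 0.278% and in *Ppfia3*. The cyclic AMP response element TGACGTCA was in 2.1% and in no member. *Bsn* and *Pclo* had 26 and 25 CpG dinucleotides in the window, above the upper quartile of 19 over all these genes, as had *Ppfia3* with 24. A match is only a match of letters, and binding was not measured.

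RIM1 and RIM2 organise docking, priming and calcium channels at the release site, and RIM-BP2 links RIM to the channels. *Rims1* (ENSMUSG00000041670, chr1:22356133-22845686, minus strand) ranged from 113 to 153 CPM in RFP libraries (median 138) and from 70.4 to 105 CPM in CRE libraries (median 83.8). The groups did not overlap, and *Rims1* fell by 0.65 on the log2 scale (SE 0.08, adjusted p = 2.38e-07), a change of -36.5%. *Rims2* (ENSMUSG00000037386, chr15:39060328-39549500, plus strand) ranged from 38.0 to 81.3 CPM in RFP libraries (median 52.8) and from 36.8 to 48.4 CPM in CRE libraries (median 45.2). Its groups overlapped, with 2 of 10 CRE libraries below every RFP library, and the fall by 0.33 on the log2 scale was small (SE 0.11, adjusted p = 0.0179). In the edgeR fit this call was lost without set number 1 (-0.31, adjusted p = 0.118), with library totals alone (-0.22, adjusted p = 0.133), with set and rep number as a block (-0.31, adjusted p = 0.072) and with neuron marker scaling, which turned the sign (0.08). *Rimbp2* (ENSMUSG00000029420, chr5:128834853-129030550, minus strand) ranged from 75.4 to 157 CPM in RFP libraries (median 115) and from 52.4 to 83.7 CPM in CRE libraries (median 69.7), with 8 of 10 CRE libraries below every RFP library. Its log2 fold change was -0.69 (SE 0.10, adjusted p = 2.8e-06), and the RFP value nearest to CRE libraries was that of library 1-1.

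*Rims1* transcripts fell more than those of *Rims2*. The ratio of their counts had a median of 2.58 in RFP libraries (from 1.80 to 3.65) and 1.88 in CRE libraries (from 1.62 to 2.79). The mean log2 ratio was lower in CRE by 0.35, with a difference of -0.35 and a 95% interval from -0.59 to -0.11 (permutation test, adjusted p = 0.0211). The ranges overlapped, and the difference missed the threshold without set number 1 (adjusted p = 0.133 from an exact permutation test), without set number 2 (adjusted p = 0.191 from the same exact test) and over all 23 libraries (adjusted p = 0.11 from the permutation test). The windows before both transcript starts are shown as those of the paralogs whose ratio differed, at chr1:22845687-22845936 for *Rims1* and chr15:39060078-39060327 for *Rims2*, with the Sp1 letters, here on the opposite strand, in capitals.
Rims1: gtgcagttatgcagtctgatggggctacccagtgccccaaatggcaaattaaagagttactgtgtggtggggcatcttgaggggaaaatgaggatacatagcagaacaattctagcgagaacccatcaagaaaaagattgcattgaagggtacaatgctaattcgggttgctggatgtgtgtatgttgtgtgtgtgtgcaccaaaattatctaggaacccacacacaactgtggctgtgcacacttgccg
Rims2: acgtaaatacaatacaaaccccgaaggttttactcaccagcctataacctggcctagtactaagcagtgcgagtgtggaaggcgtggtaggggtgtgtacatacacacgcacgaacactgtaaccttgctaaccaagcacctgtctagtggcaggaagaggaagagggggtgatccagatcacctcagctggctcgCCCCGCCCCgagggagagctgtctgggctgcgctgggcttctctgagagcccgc
The window of *Rims1* had 3 CpG dinucleotides and 46.4% GC, and that of *Rims2* 11 CpG and 56.4% GC, beside a median of 13 CpG over the tested protein-coding genes.

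Munc13 proteins prime vesicles for fusion. *Unc13a*, which encodes Munc13-1, the main isoform of hippocampal glutamatergic synapses (ENSMUSG00000034799, chr8:72076694-72124685, minus strand), ranged from 285 to 398 CPM in RFP libraries (median 332) and from 196 to 363 CPM in CRE libraries (median 233). In CRE, 9 of 10 libraries lay below every RFP library, at up to 246 CPM, and library 3-2 stood at 363 CPM within the RFP range. *Unc13a* fell by 0.50 on the log2 scale (SE 0.09, adjusted p = 5.42e-05). Its exons share 2758 bases, 16.7% of their length, with *Colgalt1* on the opposite strand, and the strand setting of the counting is not given in the sources used here. *Colgalt1* itself had a log2 fold change of 0.01 (adjusted p = 0.935). *Unc13b*, which encodes Munc13-2 (ENSMUSG00000028456, chr4:43058940-43264885, plus strand), ranged from 24.2 to 79.6 CPM in RFP libraries (median 38.9) and from 21.9 to 70.1 CPM in CRE libraries (median 30.7). The highest value of each group came from its library 3-2, and the groups overlapped over most of their range. The log2 fold change was -0.28 (SE 0.21, adjusted p = 0.305), with a 95% interval from -37.8 to 8.88% that includes a fall as large as that of *Unc13a*. The value rested on these libraries, at -0.44 (adjusted p = 0.0548 in the edgeR fit) without CRE library 3-2 and -0.18 (adjusted p = 0.504) without RFP library 3-2. The ratio of *Unc13a* to *Unc13b* had a median of 8.39 in RFP and 7.16 in CRE libraries. The mean log2 ratio differed by -0.19, with a 95% interval from -0.55 to 0.17 (permutation test, adjusted p = 0.411).

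ELKS proteins bind RIM, Bassoon and liprin-α. *Erc2*, which encodes the brain-specific ELKS2 or CAST (ENSMUSG00000040640, chr14:27344274-28200509, plus strand), had the largest fall of the members. It ranged from 186 to 275 CPM in RFP libraries (median 243) and from 81.9 to 147 CPM in CRE libraries (median 123), with a wide gap between the groups. The log2 fold change was -1.0 (SE 0.10, adjusted p = 2.73e-09), a change of -49.9% with a 95% interval from -56.1 to -42.9%. *Erc1*, which encodes the widely expressed ELKS1 (ENSMUSG00000030172, chr6:119547756-119825459, minus strand), ranged from 170 to 222 CPM in RFP libraries (median 190) and from 126 to 193 CPM in CRE libraries (median 159). In 8 of 10 CRE libraries the level was under that of every RFP library, and *Erc1* fell by 0.28 on the log2 scale (SE 0.08, adjusted p = 0.00415), a call lost with library totals alone (adjusted p = 0.108 in the edgeR fit). An lncRNA on the opposite strand, Gm44317, shares 10.9% of the exon length of *Erc1*.

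The order of the ELKS genes by count differed between the groups. *Erc2* had more counts than *Erc1* in all 11 RFP libraries, where the ratio of *Erc1* to *Erc2* ran from 0.727 to 0.977 (median 0.838). In CRE libraries it ran from 1.16 to 1.71 (median 1.31), so that *Erc1* had more counts in all 10. The mean log2 ratio differed by 0.72, with a 95% interval from 0.56 to 0.87 (two-sided permutation test, p = 2e-05, the smallest that 100000 resamples can give, adjusted p = 8e-05). Summed per set number, it was 1.46, 1.3 and 1.34 in CRE and 0.757, 0.835 and 0.843 in RFP, where an exact permutation test of 3 against 3 cannot give a p below 0.1. The ratio kept this direction, with an adjusted p under 0.05, without each set number, over all 23 libraries and with the GC trend removed. As a ratio of counts it compares transcripts of unequal length, so that the value of 1 has no meaning in molecules.

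**Figure D2:**
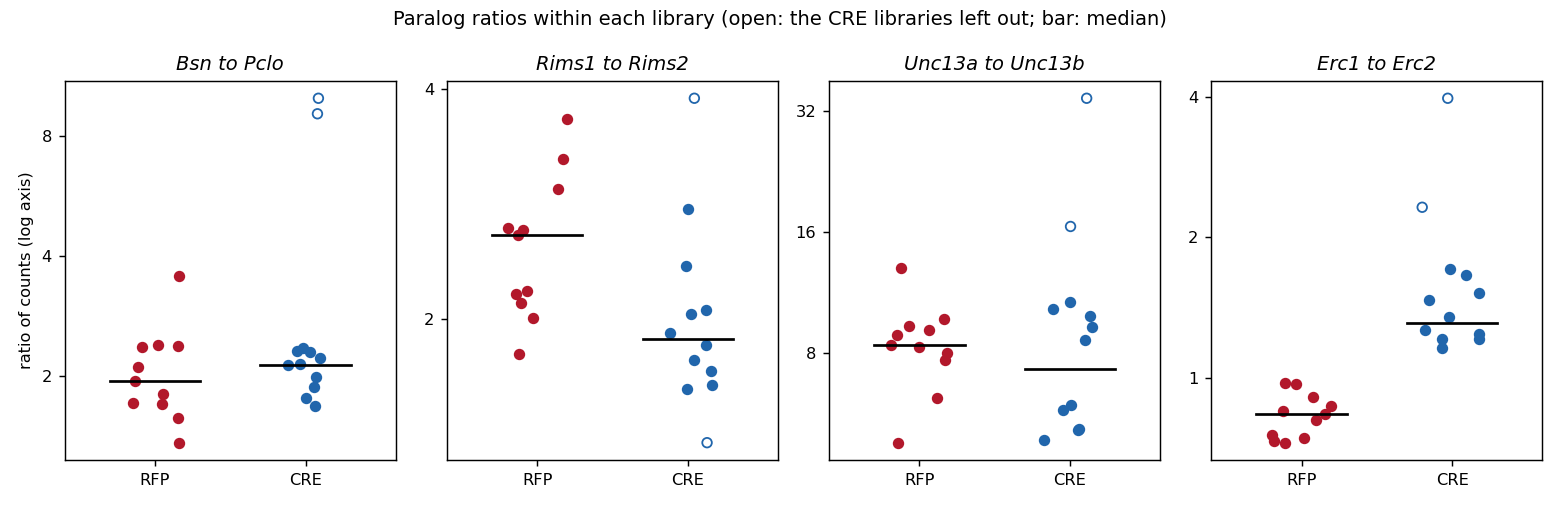
Ratio of counts within each library for the 4 paralog pairs (log axis), for RFP and CRE libraries, with open points for CRE libraries 1-3 and 3-3 and a bar at the median of the filled points. *Erc1* to *Erc2* separates the groups, with RFP up to 0.977 and CRE from 1.16, while the ranges of the other pairs overlap.

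Liprin-α proteins recruit scaffold components and bind receptor phosphatases of the LAR type. *Ppfia3*, which encodes liprin-α3 (ENSMUSG00000003863, chr7:44988545-45016901, minus strand), ranged from 94.9 to 181 CPM in RFP libraries (median 117) and from 58.9 to 100 CPM in CRE libraries (median 68.5). All but the highest CRE library, 3-2, lay below every RFP library. *Ppfia3* fell by 0.79 on the log2 scale (SE 0.11, adjusted p = 1.32e-06), a change of -42.1%.

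Levels between genes were compared per kilobase of exons. In RFP libraries *Bsn* stood highest, with a median of 29.8 CPM per kb, followed by *Erc2* at 21.1, *Unc13a* at 20.1, *Ppfia3* at 14.0, *Rims1* at 13.9, *Pclo* at 10.7, *Erc1* at 10.4 and *Rimbp2* at 9.35 CPM per kb. *Rims2* at 3.87 and *Unc13b* at 1.71 CPM per kb were the lowest. The ranges over libraries overlapped between each neighbouring pair in this order except *Rimbp2* and *Rims2*. The order depends on the length taken, since *Erc2* came first, at 72.0 CPM per kb, when its short canonical transcript was used. In CRE libraries *Erc2* stood at 10.7, below *Unc13a* at 14.1 and *Bsn* at 18.0 CPM per kb, with the exon length.

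All 10 genes had lower means in CRE than in RFP libraries within each set number. The median of their log2 differences was -0.75 in set 1, -0.55 in set 2 and -0.44 in set 3. *Erc2* differed by -1.18, -0.86 and -1.05, with every CRE library below every RFP library of its set each time. The same separation in all sets was found for *Bsn*, *Pclo*, *Rims1* and *Rimbp2*, 5 members in all, and for 4.02% of all genes tested. The difference of *Bsn* ran from -1.03 in set 1 over -0.67 in set 2 to -0.26 in set 3, and that of *Rimbp2* was largest in set 3 at -0.86. No member passed the test of the interaction of condition and set number in the edgeR fit, which 0.311% of all genes tested passed. *Bsn* came nearest (p = 0.00156, adjusted p = 0.153), and *Ppfia3* had an unadjusted p of 0.045 (adjusted p = 0.489).

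CRE libraries 1-3 and 3-3, kept out of the comparison, held 7430401 and 1546796 counts. In both, gene levels relative to the mean of the other libraries increased with GC content, with rank correlations across genes of 0.728 and 0.525. RFP library 2-4, which was kept, had 0.398, and the other 20 libraries had -0.309 to 0.092. The mitochondrial share of counts was 0.261% and 1.83% in the 2 CRE libraries, 3.43% in RFP library 2-4 and 7.0% to 11.1% in the others. The GC-rich members stood high there. *Bsn* was at 539 and 780 CPM in CRE libraries 1-3 and 3-3, *Unc13a* at 381 and 446, and *Ppfia3* at 214 and 209. Of the 4 members with the lowest GC content, *Erc2* was at 32.4 and 47.1 CPM and *Pclo* at 54.4 and 85.9, below every other CRE library, whereas *Unc13b* and *Erc1* were below the others only in library 3-3, at 13.0 and 109 CPM. *Nedd8*, at 12.1 and 2.05 CPM, was as low as in the other CRE libraries.

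Over all 23 libraries 6 members fell, among 11.8% of all genes tested. *Bsn* (log2 fold change -0.38, adjusted p = 0.0875), *Unc13a* (-0.34, adjusted p = 0.051) and *Ppfia3* (-0.40, adjusted p = 0.164) did not pass edgeR's test there. With the GC trend of each library removed, an alternative chosen after seeing the data, these 3 passed over all 23 libraries, at -0.54 (adjusted p = 6.61e-06), -0.51 (adjusted p = 1.68e-05) and -0.65 (adjusted p = 2.87e-06), while *Erc1* did not (-0.21, adjusted p = 0.125). Without these CRE libraries and without RFP libraries 2-4 and 3-2, 9 members fell, beside 2743 of 14666 genes tested. *Erc2* had a log2 fold change of -1.07 there. RFP library 3-2 had 24.2% of its counts from the ribosomal *Rn18s-rs5*. Leaving out any single library of the main comparison kept 9 members past the test, all lower. Beside them, 2416 to 2991 of the 14362 to 14714 genes tested were lower, and 5186 to 5521 were called in either direction.

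General neuron markers moved only in part with the active zone genes. Of the 11 markers 6 fell and 1, *Nefm*, rose, and their summed median was 4480 CPM in CRE and 6130 CPM in RFP libraries. *Rbfox3* (NeuN) fell by 1.13, *Tubb3* by 0.83 and *Map2* by 0.53 on the log2 scale, with adjusted p of 6.89e-07, 0.000107 and 4.09e-05 in the edgeR fit. *Elavl3* (-0.10, adjusted p = 0.335), *Nefl* (-0.09, adjusted p = 0.509), *Elavl4* (0.14, adjusted p = 0.47) and *Ina* (0.12, adjusted p = 0.275) did not pass the test. Of the other lists, 4 of 12 GABA neuron markers fell and 2 rose, 4 of 10 astrocyte markers fell and 2 rose, and 6 of 9 oligodendrocyte lineage markers tested fell. Of 2 microglia markers tested 1 rose, and of 6 endothelial and mesenchymal markers tested 1 fell and 1 rose. In the same fit 17.8% of all genes tested were lower and 20.2% higher, and several of these small counts are near those shares. The largest parts of the summed neuron markers were *Map2*, *Stmn2* and *Tubb3*, with RFP medians of 1910, 1090 and 814 CPM, which themselves fell. The 4 neuron markers that did not pass had RFP medians of 103 to 371 CPM. Scaling by this sum therefore also divides out the fall of its largest markers. When libraries were scaled by it in place of TMM, the median of all genes tested moved to 0.45. Only *Erc2* (-0.59, adjusted p = 7.52e-07) and *Ppfia3* (-0.35, adjusted p = 0.0167) among the members still fell in this edgeR fit, among 5.13% of all genes, while 52.1% rose. *Rims2*, *Erc1* and *Unc13b* then changed sign, at 0.08, 0.12 and 0.19, without passing the test, and the others lay between -0.27 and -0.07. Library totals alone moved the median of all genes to 0.13, where *Rims2* and *Erc1* no longer passed. The part that the number or state of neurons had in the falls was not tested.

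**Figure D3:**
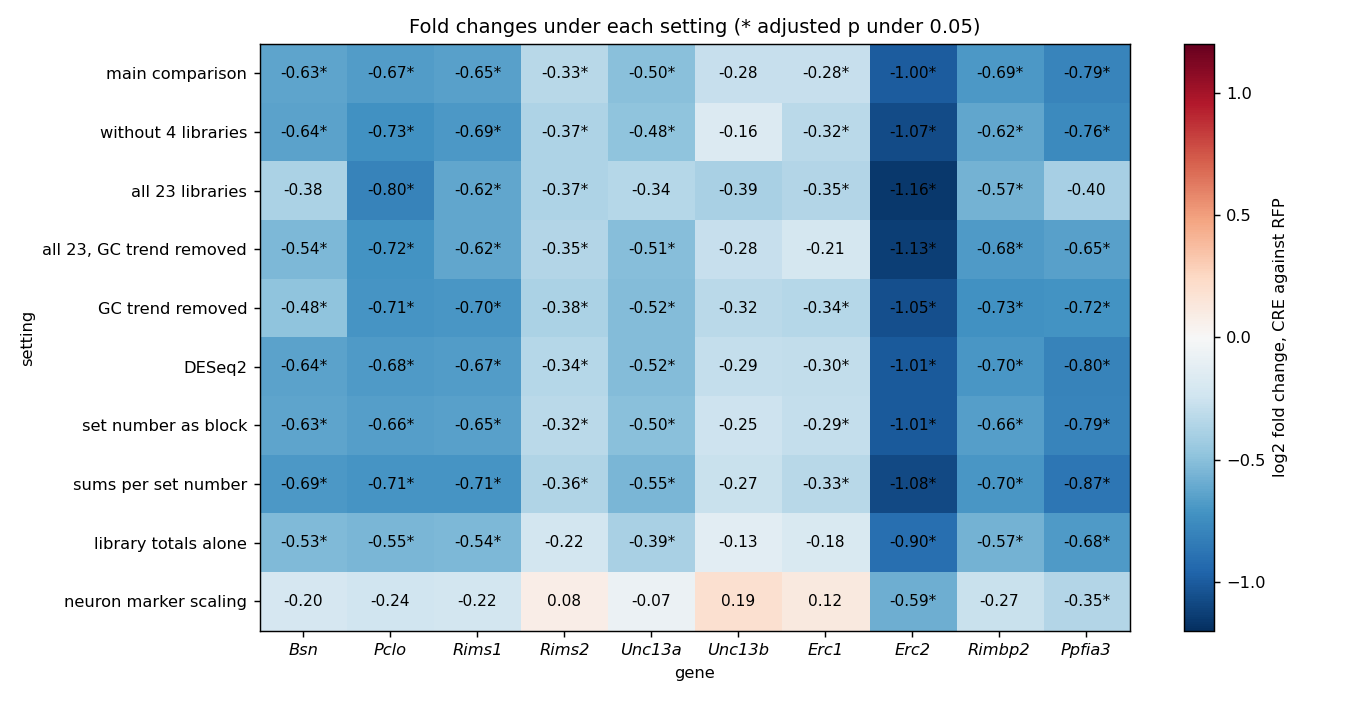
Log2 fold change of each active zone gene, CRE against RFP, under 10 settings (rows), with blue for lower and red for higher in CRE and a star at an adjusted p under 0.05. *Erc2* is starred in every row, and *Rims2*, *Unc13b* and *Erc1* are slightly above 0 only with neuron marker scaling, at 0.08, 0.19 and 0.12.

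The relatives of the members did not move as one. Of 11 paralogs 10 were tested, 3 fell, 1 rose and 6 did not pass, with a median of -0.20. The fallers were *Ppfia2* (liprin-α2; 75.2 ± 8.11 CPM, SD, n = 10 CRE, against 124 ± 19.1, n = 11 RFP; log2 fold change -0.73, adjusted p = 2.25e-07), *Tspoap1* (RIM-BP1; -0.69, adjusted p = 8.72e-06) and the little expressed *Rimbp3* (-1.14, adjusted p = 0.0117, 5 to 69 counts). *Ppfia1*, which encodes the widely expressed liprin-α1, rose from 21.4 ± 4.60 (SD, n = 11) to 28.4 ± 5.85 CPM (SD, n = 10; 0.41, adjusted p = 0.0203), but did not pass over all 23 libraries (0.39, adjusted p = 0.0529) or without the 4 libraries that stood apart (0.36, adjusted p = 0.0528). *Ppfia2* shares 20.2% of its exon length with *Acss3* on the opposite strand. The short RIM genes *Rims3* and *Rims4* and the liprin gene *Ppfia4* had values of 0.16, 0.01 and 0.13 (adjusted p = 0.361, 0.962 and 0.461). *Unc13d* was too low to be tested. With neuron marker scaling, 1 paralog was lower and 4 were higher, a direction in which 52.1% of all genes were called.

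The calcium channels to which the scaffold ties vesicles were represented by 10 subunit genes, of which 5 fell and 5 did not pass. *Cacna2d1*, the α2δ-1 subunit that brings channels to the terminal, fell by 1.13 on the log2 scale (SE 0.12, adjusted p = 7.74e-09), from 197 ± 40.6 CPM (SD, n = 11) to 90.1 ± 12.1 (SD, n = 10). The β subunit genes *Cacnb1* and *Cacnb2* fell by 0.66 and 0.62 (adjusted p = 3.21e-07 and 0.000199). The pore subunit gene of N-type channels, *Cacna1b*, fell by 0.27 (adjusted p = 0.0034), while that of P/Q-type channels, *Cacna1a*, had -0.21 (adjusted p = 0.0951). Over all 23 libraries 2 of the 10 fell, *Cacna2d1* and *Cacnb2*. *Cacnb1* (-0.39, adjusted p = 0.0798) and *Cacna1b* (-0.16, adjusted p = 0.256) did not pass edgeR's test there. The call of *Cacna1b* was also lost with library totals alone (-0.16, adjusted p = 0.165). With neuron marker scaling 2 fell and 2 rose, again beside 52.1% of all genes higher, and *Cacna1b* had 0.16 (adjusted p = 0.166).

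Among 17 adaptors and Rab3 partners, which connect the scaffold with vesicles and adhesion proteins, 10 fell, 7 did not pass and none rose, with a median of -0.29. The Rab3 GTPases, which RIM binds on the vesicle, fell for *Rab3a* (from 498 ± 47.9, SD, n = 11, to 346 ± 52.6 CPM, SD, n = 10; -0.53, adjusted p = 7.18e-06), *Rab3c* (-0.63, adjusted p = 4.08e-05) and *Rab3d* (-0.66, adjusted p = 1.95e-06). *Rab3b* had 0.33 (adjusted p = 0.0795). *Lin7b*, of the Cask, Mint and Veli complex, fell by 1.25 (adjusted p = 2.73e-06), whereas *Cask* had 0.18 (adjusted p = 0.0918). Exons of *Rab3a* and *Lin7b* overlap other genes on the opposite strand over 18.0% and 20.0% of their length. Over all 23 libraries 3 of the 17 fell, with *Rab3c* and *Rab3d* among them. *Rab3a* (-0.33, adjusted p = 0.0741) and *Lin7b* (-0.63, adjusted p = 0.137) did not pass edgeR's test there. With neuron marker scaling, under which 52.1% of all genes rose, 2 fell and 7 rose. The receptor phosphatase genes *Ptprd*, *Ptprf* and *Ptprs*, which bind liprin-α, did not pass, at -0.23, -0.11 and -0.14 (adjusted p = 0.208, 0.391 and 0.183). Of 4 ubiquitin ligase parts known at the active zone, *Siah1a*, a ligase that Bassoon and Piccolo restrain, rose by 0.34 (adjusted p = 0.0269), with 17.5% of its exon length shared with *Lonp2* on the opposite strand. It did not pass edgeR's test over all 23 libraries (0.20, adjusted p = 0.411) or without the 4 libraries that stood apart (0.29, adjusted p = 0.0603). *Fbxo45* and *Mycbp2*, which form 1 ligase, had -0.19 and -0.06 (adjusted p = 0.0972 and 0.565), and *Fbxl20* (SCRAPPER), which marks RIM1 for breakdown, 0.23 (adjusted p = 0.125).

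**Figure D4:**
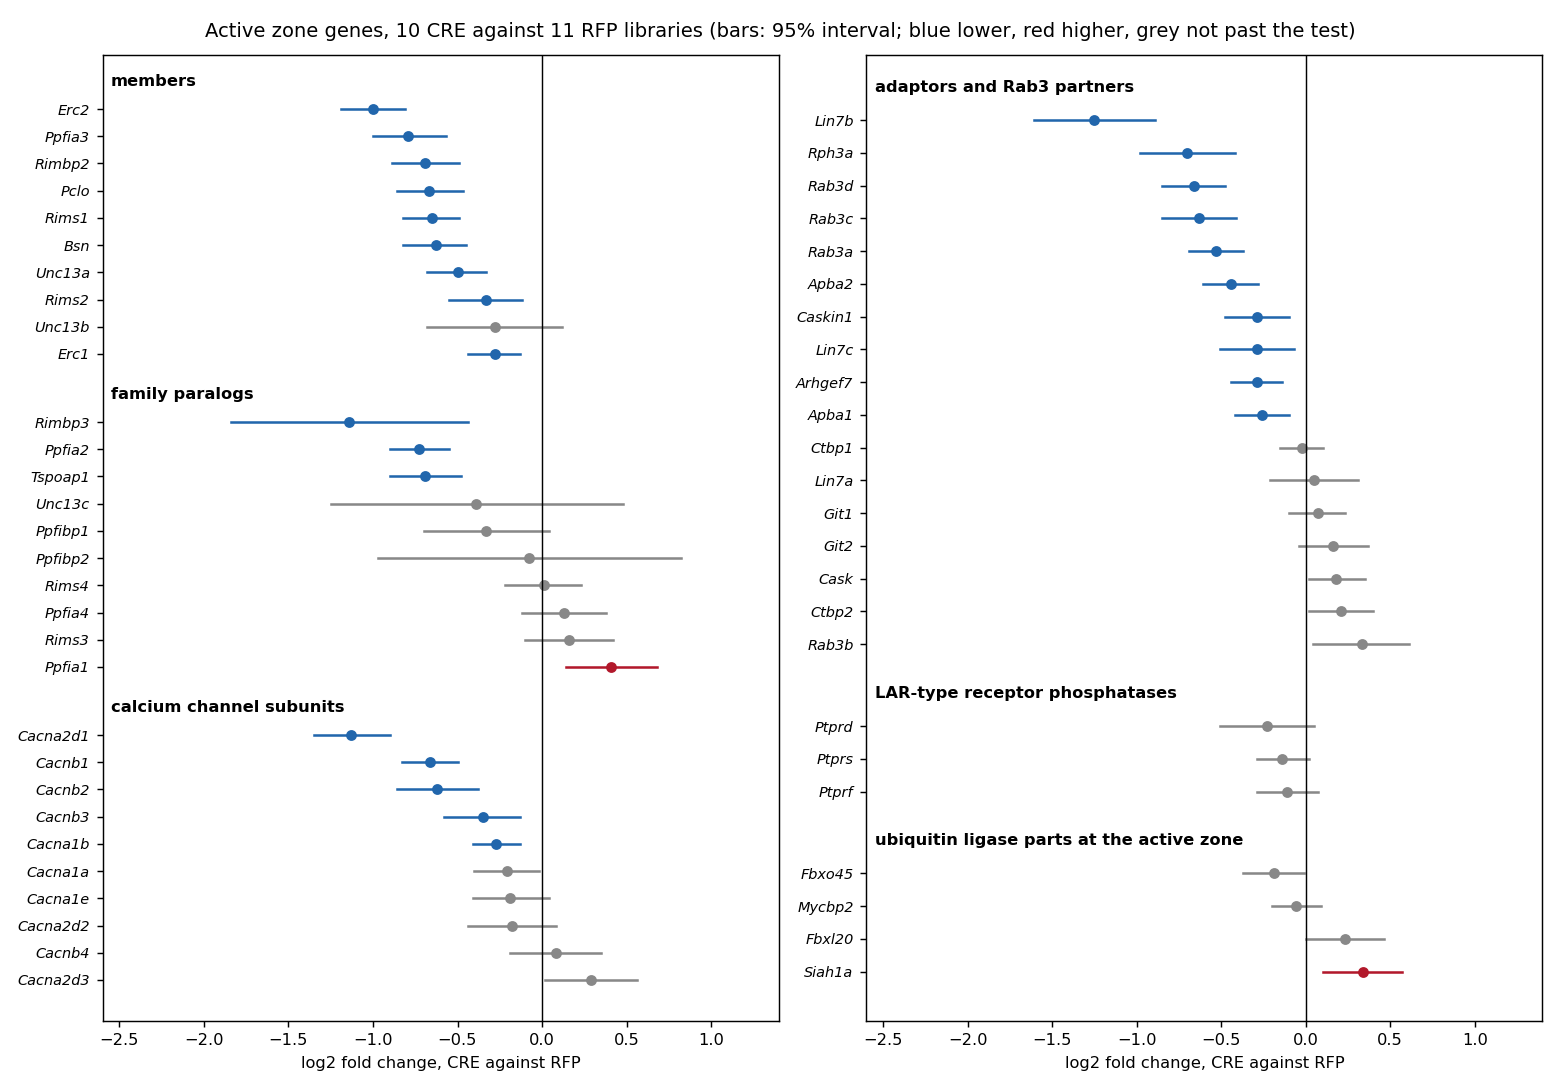
Log2 fold change of the 10 active zone genes (members) and of their paralogs, channel subunits, adaptors, receptor phosphatases and ubiquitin ligase parts, CRE against RFP, with bars for the 95% interval, blue for lower, red for higher and grey for not past the test, under TMM scaling. *Erc2* is the lowest of the members at -1.0 and only *Unc13b* among them is grey; with neuron marker scaling *Rims2*, *Erc1* and *Unc13b* lie above 0.

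Within the groups, the members varied together only in part. Over 19 libraries, without CRE 1-3, CRE 3-3, RFP 2-4 and RFP 3-2, deviations from the group mean of log2 CPM were set against the mean of the other 9 members. The Pearson coefficient was 0.627 for *Unc13a*, 0.577 for *Pclo*, 0.568 for *Rims1*, 0.491 for *Bsn*, 0.472 for *Rimbp2* and 0.393 for *Ppfia3*. It was 0.242 for *Unc13b*, -0.007 for *Rims2*, -0.124 for *Erc1* and -0.279 for *Erc2*, which fell most between the groups. Of all genes outside the list, *Mapk8ip3* (0.899), *Rusc2* (0.856), *Lonp1* (0.847), *Pick1* (0.813) and *Camsap1* (0.806) followed the members' mean most closely within the groups. Of these 5, *Mapk8ip3* was lower in CRE (log2 fold change -0.30, adjusted p = 0.00529) and the other 4 did not pass the test. These coefficients are descriptions, since the values share their libraries, depth and base composition, and the 5 genes have 51.4 to 59.4% GC in their exons.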

How the data were processed

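RNA of 12 CRE and 11 RFP libraries was prepared with Illumina Stranded mRNA Prep. The authors deposited raw counts per gene for each library, not normalized. The submitters' processing notes name bcl2fastq 2.20.0.422, STAR 2.7.8a, featureCounts 1.5.0-p1 and GRCm39. Strand and multimapping settings are not given in the sources used here. GENCODE M39 on GRCm39 named 56323 of 56941 genes. Members and lists were chosen with earlier results of these data known.

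The fit of 10 CRE against 11 RFP libraries used edgeR 4.0.16 in R 4.3.3 (filterByExpr, TMM, robust glmQLFit, glmQLFTest). CPM values used TMM factors over all 23 libraries. Intervals are 1.96 SE. Log2 ratios of paralog counts were permuted over libraries (two-sided, 100000 resamples, scipy 1.17.1), exactly where a group had under 10 libraries, with Benjamini-Hochberg adjustment over 4 pairs. Both were tested on simulated data. Alternatives covered the libraries, DESeq2 1.42.0, limma 3.58.1, scaling, filter, GC trend, replicate block, sums per set number and leave-one-out fits. Of the settings, 2 were chosen after seeing the data. Named genes are all members, Nedd8, of the paralog and partner lists up to 4 genes with the smallest adjusted p under 0.05, and the 5 genes most like the members' mean. Other genes given with values (Colgalt1, markers and list genes that did not pass) were chosen after their values were seen.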

Additional observations from a re-analysis of the deposited data

Results flagged for a closer look

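*Unc13a* stood at 363 CPM in CRE library 3-2, farther from the next of the 10 CRE libraries than a Dixon test at 95% allows. This was 1 of 10 such tests, 1 for each member in CRE, and chance flags about 1 in 20. The library also had the highest *Bsn*, *Rims1*, *Unc13b*, *Rimbp2* and *Ppfia3* and the lowest *Erc2* of the 10, and a rank correlation with GC content of 0.092. Without it, *Unc13a* had a log2 fold change of -0.59 (adjusted p = 2.12e-07 in the edgeR fit).

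In the CRE libraries kept out of the comparison, levels above every RFP library were found for *Ppfia3* in library 1-3 (214 CPM) and, in library 3-3, for *Bsn* (780 CPM), *Unc13a* (446 CPM) and *Ppfia3* (209 CPM). The exons of these genes hold 57.3% (*Ppfia3*), 59.7% (*Bsn*) and 54.5% (*Unc13a*) GC, and the part of the GC trend of these libraries in these levels was not tested for single libraries.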

How the results depend on the processing

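Each value was recomputed under up to 40 settings, counting 21 fits without 1 library and 3 without a set number. Of 400 values of single members, 384 kept their direction and side of the threshold, 13 lost the call in the same direction and 3 changed sign. Among the latter, *Rims2* and *Erc1* lost their call as well. *Unc13b*, not past the test in any setting, had no call to lose. *Erc2* kept its call in all 40 settings (-1.16 to -0.59). The number of members past the test, all lower, was 9 in the main comparison and 2 with neuron marker scaling. With that scaling *Rims2* (0.08), *Unc13b* (0.19) and *Erc1* (0.12) changed sign. There 8289 of the 14482 genes tested were called in either direction. Of the genes tested, 743 (5.13%) were lower, the direction of the 2 members, and 7546 (52.1%) were higher. The median of the members was -0.40 over all 23 libraries and -0.21 with neuron marker scaling. Without a filter on low counts the median of all genes moved to 0.10. The *Bsn* to *Pclo* difference was 0.24 with the GC trend removed (adjusted p = 0.0219) and between -0.10 and 0.12 without a set number. The *Rims1* to *Rims2* difference lost its call over all 23 libraries (-0.31), also with the GC trend removed (-0.35), and lay between -0.41 and -0.31 without a set number. The *Unc13a* to *Unc13b* difference changed sign over all 23 libraries (0.10). The causes were not tested. Deviations from the group means correlated at 0.121, 0.178 and 0.078 between CRE and RFP sets of the same number. Between sets of unlike number the correlations ran from -0.137 to 0.016, so that each CRE set correlated best with its own number. The labels do not say whether sets of a number were paired, and the main comparison did not use set number. With set number as a replicate block 9 members fell (median -0.64), beside 2611 of 14482 genes tested. With set and rep number as a replicate block 8 fell, beside 2210 of 14342 genes tested. *Rims2* was lost there (-0.31, adjusted p = 0.072 in the edgeR fit). *Nedd8* had -2.41 with set number as the block. With the libraries of the study's own count table *Ppfia3* had -0.59 (adjusted p = 0.0192) and the *Bsn* to *Pclo* difference was 0.22 (adjusted p = 0.492 from the permutation test). *Unc13b* had 238 to 722 and *Rims2* 366 to 886 counts per library, the fewest among the members.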
